A study of Mus musculus with 18 samples.

Results

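The genes described here encode subunits of the mitochondrial respiratory chain and ATP synthase, with the assembly factors whose names begin in the same way. They were chosen by symbol alone: genes beginning with Nduf, Uqcr, Cox4 to Cox8 or Atp5, and the genes Sdha, Sdhb, Sdhc and Sdhd. The rule found 87 of the 17020 genes named on the array, each represented by its brightest probe set. Of these, 86 passed the filter on dim genes and were tested with the other genes that passed; Cox7b2, a testis isoform, did not pass. By complex, the tested genes comprised 33 of complex I, 7 assembly factors of complex I, 4 of complex II, 7 of complex III, 18 of complex IV and 17 of complex V, the ATP synthase. The symbol Ndufs5-ps is annotated as a pseudogene of a complex I subunit and was kept because its symbol fits the rule.

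Complex I takes electrons from NADH and complex II takes them from succinate. Both pass them to coenzyme Q, complex III hands them on to cytochrome c, and complex IV gives them to oxygen. Complexes I, III and IV pump protons across the inner mitochondrial membrane, and complex V uses the returning protons to make ATP. Most subunits are encoded in the nucleus, while a core set in every complex but the second is encoded in mitochondrial DNA; no mitochondria-encoded subunit was named on the array in the annotation used, so all values below concern nuclear genes. In macrophages, the balance between respiration and glycolysis is known to differ between inflammatory and alternative activation states.

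Gene expression was measured in bone marrow derived macrophages, which are grown from marrow with the growth factor CSF1. The treated groups received dexamethasone, a synthetic glucocorticoid, at 100 nM for 1, 2, 4, 10 or 24 h, and the remaining group is labelled baseline. All 6 groups came from marrow of 3 male C57BL/6 mice of 10 weeks, with no genetic change named in the labels, and all cells were grown with serum (fetal calf, 10%) and with 10000 U/ml of recombinant human CSF1. There were 3 Affymetrix arrays per group, 18 in all, which the submitters call biological replicates; which mouse gave which array is not stated, and no vehicle-treated group is among the samples, so that the drug and the time elapsed since baseline cannot be told apart.

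Fkbp5, a glucocorticoid-induced co-chaperone of the glucocorticoid receptor, served as a check of the treatment: at 24 h it stood 3.54 ± 0.07 log2 units above baseline (limma standard error, n = 3 arrays per group, adjusted p 1.86e-21). All 8 macrophage markers named lay above the background level on every array. The 5 fibroblast markers lay below it on every array. Of the macrophage markers, 1 was called higher at 2 h and at 4 h, and 2 were called higher at 10 h. At 24 h 2 macrophage markers were called higher and 1 lower. Of 3 T cell markers, 1 lay above background on every array and none was called. The summed intensity of 6 neutrophil markers ran between 553 and 679 at 24 h, against 674 and 1104 at baseline, with overlap, and 2 of the 6 were called lower at 10 h and at 24 h. That of 3 B cell markers ran between 53.6 and 62.7 at 24 h, against 62.9 and 70.8 at baseline, and none of them was called. An erythroid marker was called higher at 4 h and a dendritic cell marker at 10 h; no gene of either list was above background on every array. In bulk RNA, fewer cells of a type and less RNA per cell cannot be told apart. As a measure of RNA quality, Gapdh signal towards the 3' end exceeded that towards the 5' end by 0.165 ± 0.024, 0.148 ± 0.077, 0.190 ± 0.021, 0.197 ± 0.090 and 0.200 ± 0.034 log2 at 1, 2, 4, 10 and 24 h, against 0.056 ± 0.030 at baseline (SD, n = 3 each). The part of these measures in the results below was not tested.

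With the deposited scaling of the arrays, transcript levels of the respiratory chain changed little. No gene of the group was called at 1, 2 or 4 h (limma, Benjamini-Hochberg adjusted p under 0.05 over all tested genes), when 0.387%, 2.15% and 7.52% of all tested genes were called; 4, 3 and 6 of the 86 had an unadjusted p under 0.05, or 4.65%, 3.49% and 6.98%, against 4.56%, 9.29% and 18.2% of all tested genes. At 10 h, 6 genes fell and 1 rose, or 8.14% of the 86 against 14.4% of all tested genes; for falls alone the share was 6.98% against 6.16%, and for rises 1.16% against 8.29%. At 24 h, 6 genes fell and 0 rose, again 6.98%, against 12.7% of all tested genes called, 5.34% lower and 7.38% higher. With each array centred on the median level of its tested genes, 34 genes fell at 10 h and 41 at 24 h, or 39.5% and 47.7%, against 15.5% and 14.5% of all tested genes, and 0 of the 86 rose at either time. Centring moved the median change of all tested genes to -0.11 at both times. The median of the 86 genes relative to it was the same with and without centring, -0.05 at 10 h and -0.06 at 24 h. The median standard error was 0.05 for the 86 genes and 0.12 for all tested genes, and its part in these shares was not tested. Without centring, only Atp5o and Ndufb7 were called at both times, so that 11 of the 86 were called at 1 time or more, against 20.5% of all tested genes. The F test over all 5 times called 3 genes, Ndufaf3, Ndufaf8 and Sdhc, against 17.4% of all tested genes. With the replicate number as a block, 1 gene, Atp5o, was called at 4 h. In that fit 2 genes rose and 10 fell at 10 h, 2 rose and 10 fell at 24 h, and the F test called 11. The genes that the block added are named in the last section.

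**Figure D1:**
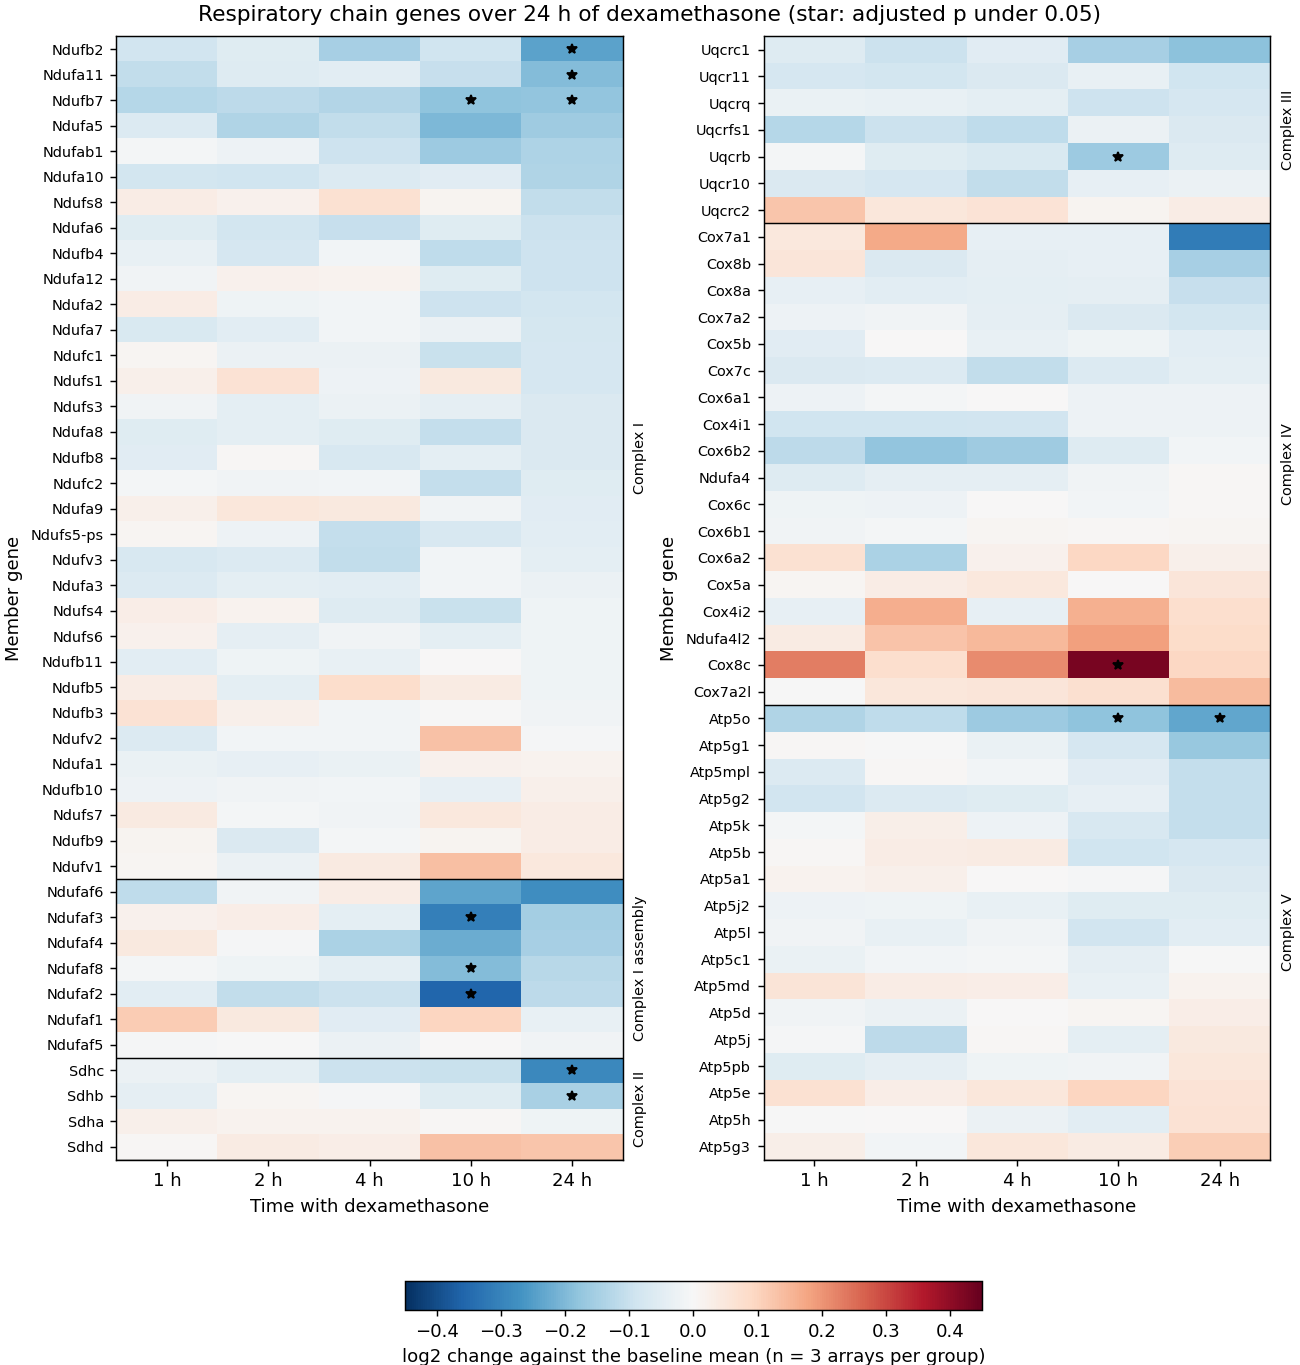
Heat map of the log2 change against the baseline mean of the 86 tested genes (rows, by complex) at 1, 2, 4, 10 and 24 h (columns), with n = 3 arrays per group and stars for an adjusted p under 0.05. The 13 stars all stand in the 10 h and 24 h columns, 12 of them on falls.

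The typical change was small and mostly downward. The median log2 change of the 86 genes was -0.02 at 1 h, -0.02 at 2 h, -0.03 at 4 h, -0.04 at 10 h and -0.05 at 24 h, while the median of all tested genes lay at 0.01 at 24 h. The number of genes below 0 was 55, 59, 62, 62 and 63 at these times; at 24 h that is 73.3%, against 47.3% of all tested genes. At 10 h all 3 arrays lay below all 3 baseline arrays for 10 of the 86 genes, or 11.6%, the same share as for all tested genes (11.6%). They lay below them for 17 of the 86 genes at 24 h, or 19.8%, against 12.6% of all tested genes, and above them for 1 gene, Atp5g3, or 1.16% against 15.3%. The 24 h median was -0.17 with the arrays centred in that way, which moved the median of all tested genes to -0.11. Relative to the median of all tested genes it was -0.06 at 24 h and -0.05 at 10 h, and with quantile normalization run again it was -0.04 and -0.02. The early and middle medians depended on single baseline arrays: without baseline replicate 2 the median was -0.01 at 2 h and -0.02 at 10 h, and without baseline replicate 3 it was -0.03 at 1 h, -0.04 at 2 h, -0.04 at 4 h and -0.06 at 10 h.

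The precision was high enough to bound most genes closely. The median standard error of a log2 change was 0.05 for the 86 genes and 0.12 for all tested genes. At 24 h the 95% interval of the change lay wholly within a fold of 1.2 either way, which is 0.26 on the log2 scale, for 65 of the 86 genes or 75.6%, against 23.9% of all tested genes. At 1 h it did so for 77 genes. By complex, the 24 h count was 29 of 33 for complex I, 3 of 7 for its assembly factors, 2 of 4 for complex II, 6 of 7 for complex III, 10 of 18 for complex IV and 15 of 17 for complex V. Of the 87 genes, 81 lay above background on every array.

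**Figure D2:**
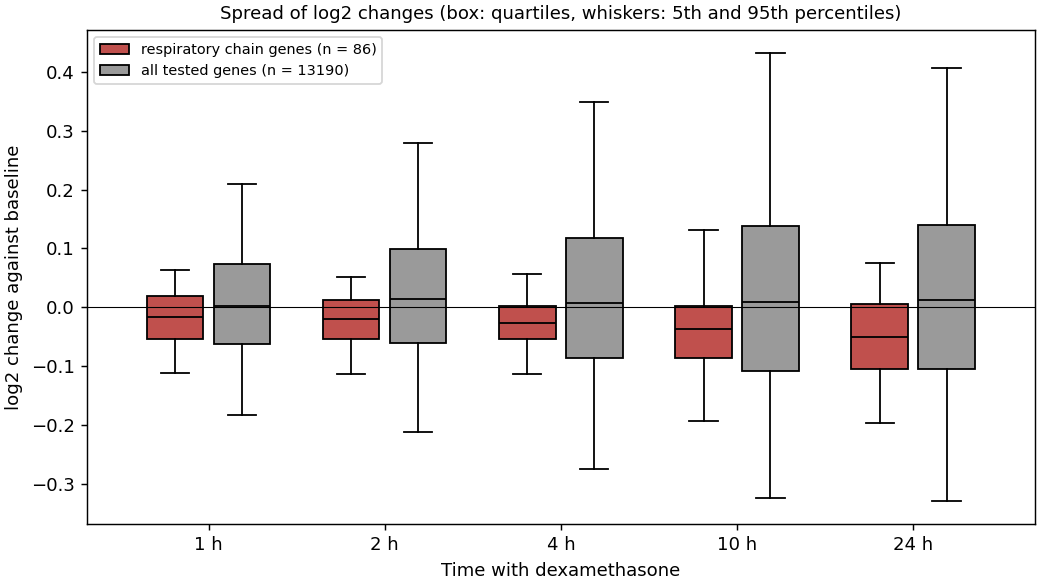
Boxes of the log2 change against baseline at 1, 2, 4, 10 and 24 h for the 86 respiratory chain genes (red) and for all tested genes (grey), with quartiles as boxes and the 5th and 95th percentiles as whiskers. The red boxes are narrower than the grey ones at every time, and their median lies lowest at 24 h, at -0.05. The genes behind the red and grey boxes were not matched for intensity.

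Among the 33 complex I genes, 3 fell at 24 h and 0 rose, with a median of -0.06. Ndufb2, an accessory subunit of the membrane arm, read 9.78, 9.83 and 9.80 log2 at 24 h, against 10.00, 10.23 and 9.90 at baseline, so the groups did not overlap. It fell by 0.24 ± 0.07 log2 units (adjusted p 0.0257). Ndufa11, a membrane arm subunit, read 10.03, 10.13 and 10.04 at 24 h, against 10.32, 10.24 and 10.23 at baseline. It fell by 0.20 ± 0.05 log2 units (adjusted p 0.0163), again without overlap. Ndufb7, an accessory subunit on the intermembrane space side, was called at both late times. It read 10.95, 10.87 and 10.86 at 10 h and 10.88, 10.96 and 10.84 at 24 h, against 11.004, 11.26 and 10.95 at baseline. The highest 24 h array lay above the lowest baseline array, and replicate 2 was the highest baseline array. Ndufb7 fell by 0.18 ± 0.06 on the log2 scale at 10 h (adjusted p 0.0377) and fell by 0.18 ± 0.06 at 24 h (adjusted p 0.0439).

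These complex I calls were close to the threshold. Without baseline replicate 2, Ndufb7 stood at -0.08 log2 at 10 h and at 24 h (adjusted p 0.305 and 0.334) and Ndufb2 at -0.15 at 24 h (adjusted p 0.205); the Ndufb7 calls were also lost without replicate 2 or 3 at 10 h (adjusted p 0.107 and 0.114), without replicate 1 or 3 at 24 h (0.117 and 0.169) and, at 24 h, without any 1 of 6 arrays of the 1, 2 and 4 h groups (at most 0.0532). Ndufb2 was lost without replicate 1 or 3 at 24 h (0.0859 and 0.0712), and Ndufa11 without baseline replicate 1 or replicate 1 or 3 at 24 h (0.0783, 0.0738 and 0.0717).

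The other complex I subunits were not called in the main fit, which used the brightest probe sets. Ndufa1, the brightest, a small membrane subunit, changed by 0.02 log2 at 24 h with a 95% interval of -0.07 to 0.10. Ndufv1, which binds NADH and the flavin that accepts its electrons, had the most positive change at 24 h, 0.05 ± 0.06. At 10 h it stood at 0.13 ± 0.06 (adjusted p 0.147), with 10.26, 10.11 and 10.10 against 10.08, 9.98 and 10.00 at baseline. It was 1 of 3 genes of the whole group whose 10 h arrays all lay above baseline, or 3.49% against 14% of all tested genes; the others were its neighbour in the NADH-oxidising module, Ndufv2 (0.13 ± 0.05, adjusted p 0.0762), and Cox8c.

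The assembly factors of complex I showed the largest falls of the group at 10 h. These proteins help to build the complex and are not part of the finished enzyme. Of 7, 3 fell at 10 h, Ndufaf2, Ndufaf3 and Ndufaf8, and 0 were called at 24 h with the brightest probe sets; the median was -0.22 at 10 h and -0.13 at 24 h. Ndufaf3, which works early in building the arm next to the quinone site, read 8.23, 8.09 and 8.09 at 10 h, against 8.53, 8.41 and 8.39 at baseline. It fell by 0.31 ± 0.06 log2 units (adjusted p 0.0013). The 4 h arrays, at 8.36, 8.40 and 8.42, also lay above the 10 h arrays, and Ndufaf3 was the 1 gene of the 86 called between these times (-0.26 ± 0.06, adjusted p 0.0168; 4.18% of all tested genes were called). The call of that step was lost without replicate 2 or 3 at 4 h or at 10 h. At 24 h Ndufaf3 read 8.30, 8.30 and 8.26, still below baseline on every array, with a change of -0.15 ± 0.06 (adjusted p 0.128).

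Ndufaf2, which joins a late assembly intermediate, read 7.30, 7.62 and 7.65 at 10 h, against 8.001, 7.90 and 7.75 at baseline. It fell by 0.36 ± 0.10 log2 units (adjusted p 0.0127), and its 10 h replicate 1 was the lowest of all arrays; without that array the change was -0.25 (adjusted p 0.0979), and without baseline replicate 1 it was -0.30 (adjusted p 0.0696). Ndufaf8, a partner of Ndufaf5 in the early steps, read 9.23, 9.16 and 9.16 at 10 h, against 9.41, 9.38 and 9.33 at baseline. It fell by 0.19 ± 0.05 log2 units (adjusted p 0.0157); the call was lost without baseline replicate 1 and without replicate 2 or 3 at 10 h (adjusted p 0.0644, 0.0550 and 0.0535). With the probe set of largest variance Ndufaf8 was called at 24 h and not at 10 h. With the mean of its probe sets it was called at both times. Ndufaf5 itself, a methyltransferase-like factor that modifies Ndufs7, stood at 0.00 ± 0.10 at 10 h. The most negative value at 24 h belonged to Ndufaf6, at -0.28 ± 0.13 (adjusted p 0.178), with 6.45, 6.80 and 6.43 against 6.75, 7.07 and 6.69 at baseline, where the groups overlapped. No assembly factor was called in the step between 10 h and 24 h, in which 0 of the 86 genes and 2.16% of all tested genes were called.

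**Figure D3:**
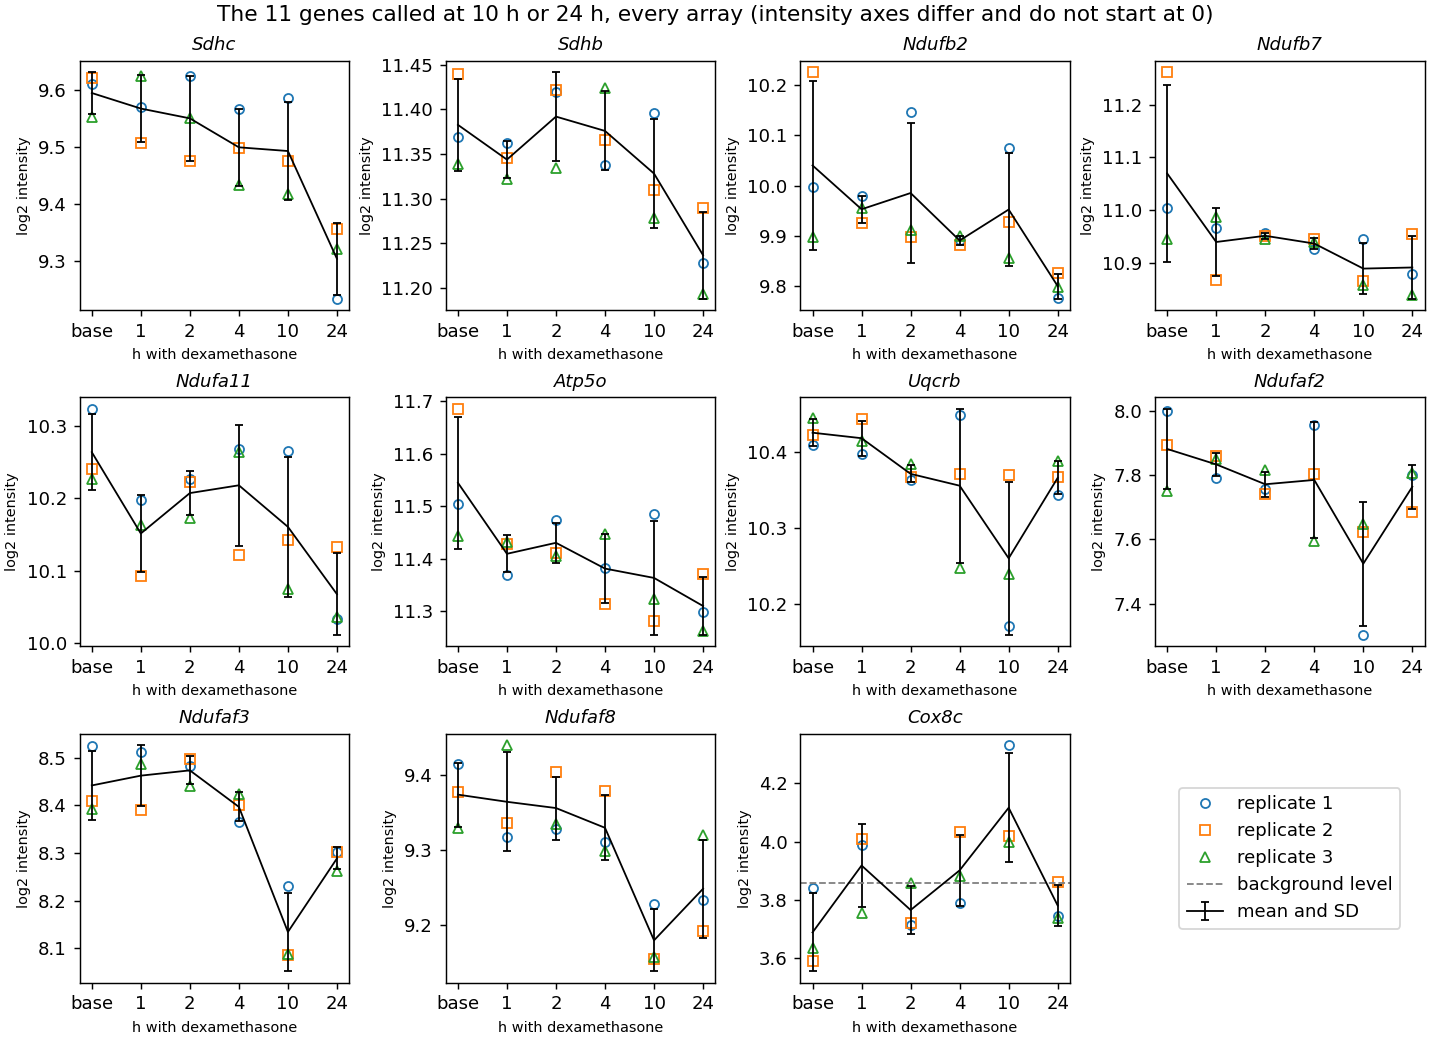
Log2 intensity on every array of the 11 genes called at 10 h or 24 h, over baseline and 1, 2, 4, 10 and 24 h, with 1 symbol per replicate number and the mean and SD of n = 3 arrays as a line. Ndufaf3 dips at 10 h and Sdhc is lowest at 24 h, while the baseline points of Ndufb7 and Atp5o are spread by replicate 2; Cox8c stays near the dashed background level of 3.86.

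All 4 genes of complex II, succinate dehydrogenase, were measured on every array. Sdhc, which encodes a membrane anchor that holds haem and the quinone site together with Sdhd, read 9.23, 9.36 and 9.32 at 24 h, against 9.61, 9.62 and 9.55 at baseline. Every 24 h array lay below every array of the other times. It fell by 0.29 ± 0.06 log2 units (adjusted p 0.000888), and the call at 24 h was kept without any 1 of the 18 arrays. Sdhb, the iron-sulphur subunit, read 11.23, 11.29 and 11.19 at 24 h, against 11.37, 11.44 and 11.34 at baseline, again without overlap. It fell by 0.15 ± 0.04 log2 units (adjusted p 0.0242); the call was lost without baseline replicate 2 and without replicate 1 or 3 at 24 h (adjusted p 0.123, 0.0758 and 0.121). Sdha, the flavoprotein that oxidises succinate, read 10.98, 10.90 and 11.01 at 24 h, against 10.94, 10.94 and 11.07 at baseline, and its groups overlapped; its change was -0.02 ± 0.05, with a 95% interval of -0.11 to 0.08. Sdhd, the other anchor, read 7.64, 7.76 and 7.77 against 7.65, 7.56 and 7.59 at baseline, with overlap, a change of 0.13 ± 0.08 that was not called (adjusted p 0.333). At 10 h none of the 4 was called, and Sdhc stood at -0.10 ± 0.06. The difference between the changes of single subunits was not tested.

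Of 7 genes of complex III, which passes electrons to cytochrome c, 1 fell at 10 h and 0 were called at 24 h. Uqcrb, the subunit that helps to bind coenzyme Q, read 10.17, 10.37 and 10.24 at 10 h, against 10.41, 10.42 and 10.44 at baseline. It fell by 0.16 ± 0.05 log2 units (adjusted p 0.0316); the call was lost without any 1 of the 3 baseline arrays (adjusted p 0.0543, 0.0653 and 0.0965) and without replicate 1 or 3 at 10 h (0.152 and 0.0921). At 24 h it stood at -0.06 ± 0.05. Uqcrc1, core protein 1, had the most negative 24 h value, -0.18 ± 0.06 (adjusted p 0.0558), with 10.33, 10.25 and 10.26 against 10.40, 10.51 and 10.48 at baseline and no overlap. Uqcrc2, core protein 2 and the brightest of the 7, had the most positive, 0.03 ± 0.06. With the replicate number as a block, Uqcrc1 was called at 10 h and at 24 h.

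Complex IV, cytochrome c oxidase, had the 24 h median nearest 0, at -0.0045 over 18 tested genes and -0.02 over the 13 above background on every array. No gene of it fell at 10 h or 24 h. The group holds pairs of isoforms, one of general use and one known from particular tissues or conditions, which had probe sets of their own. The general forms Cox4i1, Cox6a1, Cox6b1, Cox7a2 and Cox8a were above background on every array, and their 24 h changes ran between -0.10 for Cox8a and 0.01 for Cox6b1. Cox6a1, the brightest, read 12.99, 12.87 and 12.93 at 24 h, against 12.91, 12.95 and 12.99 at baseline, and its 95% interval was -0.09 to 0.05. Ndufa4, first assigned to complex I and now placed in complex IV, changed by 0.00 ± 0.04.

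The restricted isoforms were dim. Cox7b2, Cox8b, the rodent heart and muscle form, and Ndufa4l2, a paralogue of Ndufa4 induced by hypoxia in other cells, were above background on none of the 18 arrays, and Cox4i2, known from lung and from hypoxia, and Cox6b2, from testis, on 4 each. Cox6a2, a heart and muscle form, was above background on every array, yet its mean log2 intensity was 4.43, against a background of 3.86. Cox7a1, also a heart and muscle form, read 5.87, 5.56 and 6.10 at 24 h, against 6.43, 6.17 and 5.88 at baseline. Its change of -0.32 ± 0.14 was the most negative of the 86 genes at 24 h and was not called (adjusted p 0.173), and the groups overlapped. Cox7a2l, a factor that joins complexes III and IV into supercomplexes, had the most positive value at 24 h, 0.14 ± 0.06 (adjusted p 0.148), with 10.24, 10.17 and 10.45 against 10.14, 10.10 and 10.20. With the replicate number as a block it was called at 24 h.

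Cox8c, a testis form, was the 1 gene called higher, and it lay at background: its mean over all arrays was 3.86, the same as the background level. It read 4.33, 4.02 and 4.00 at 10 h, against 3.84, 3.59 and 3.63 at baseline, where 1 of 3 arrays exceeded its own background level. All 3 arrays exceeded it at 1 h and at 10 h, 1 of 3 at 2 h, and 0 of 3 at 4 h and at 24 h. The fitted change at 10 h was 0.43 ± 0.13 (adjusted p 0.0251), against a baseline not measured above background on 2 of 3 arrays. The call at 10 h was lost without baseline replicate 2 or 3 (adjusted p 0.0993 and 0.0846), without 10 h replicate 1 (0.133) and when arrays were centred on their median (0.31 log2, 0.0990).

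Complex V had 1 called gene among 17. Atp5o encodes OSCP, the part of the stalk that ties the catalytic head to its membrane base. It read 11.49, 11.28 and 11.32 at 10 h and 11.30, 11.37 and 11.26 at 24 h, against 11.51, 11.69 and 11.44 at baseline. The 24 h arrays lay below all baseline arrays and the 10 h arrays did not. Atp5o fell by 0.18 ± 0.06 on the log2 scale at 10 h (adjusted p 0.0316) and fell by 0.23 ± 0.06 at 24 h (adjusted p 0.00557). Without baseline replicate 2, the highest array, these values were -0.11 (adjusted p 0.222) and -0.16 (adjusted p 0.0591); the 10 h call was also lost without replicate 2 or 3 of that time (0.159 and 0.109).

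The 3 genes for subunit c, which forms the rotating ring and is the same mature protein from each gene, gave different values at 24 h. Atp5g3, the brightest of complex V, read 12.36, 12.36 and 12.36 at 24 h, against 12.28, 12.24 and 12.24 at baseline. Its change was 0.11 ± 0.04 and was not called (adjusted p 0.0618), although no 24 h array overlapped baseline. Atp5g1 read 10.29, 10.44 and 10.22 against 10.52, 10.53 and 10.41, a change of -0.17 ± 0.06 (adjusted p 0.082). Atp5g2 stood at -0.11 ± 0.05 (adjusted p 0.203). With the replicate number as a block, Atp5g3 and Atp5g1 were called at 24 h. The difference between the 3 genes was not tested. The genes of the catalytic head, Atp5a1, Atp5b, Atp5c1, Atp5d and Atp5e, changed by -0.07, -0.07, -0.0017, 0.03 and 0.06 log2 at 24 h, and none was called.

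**Figure D4:**
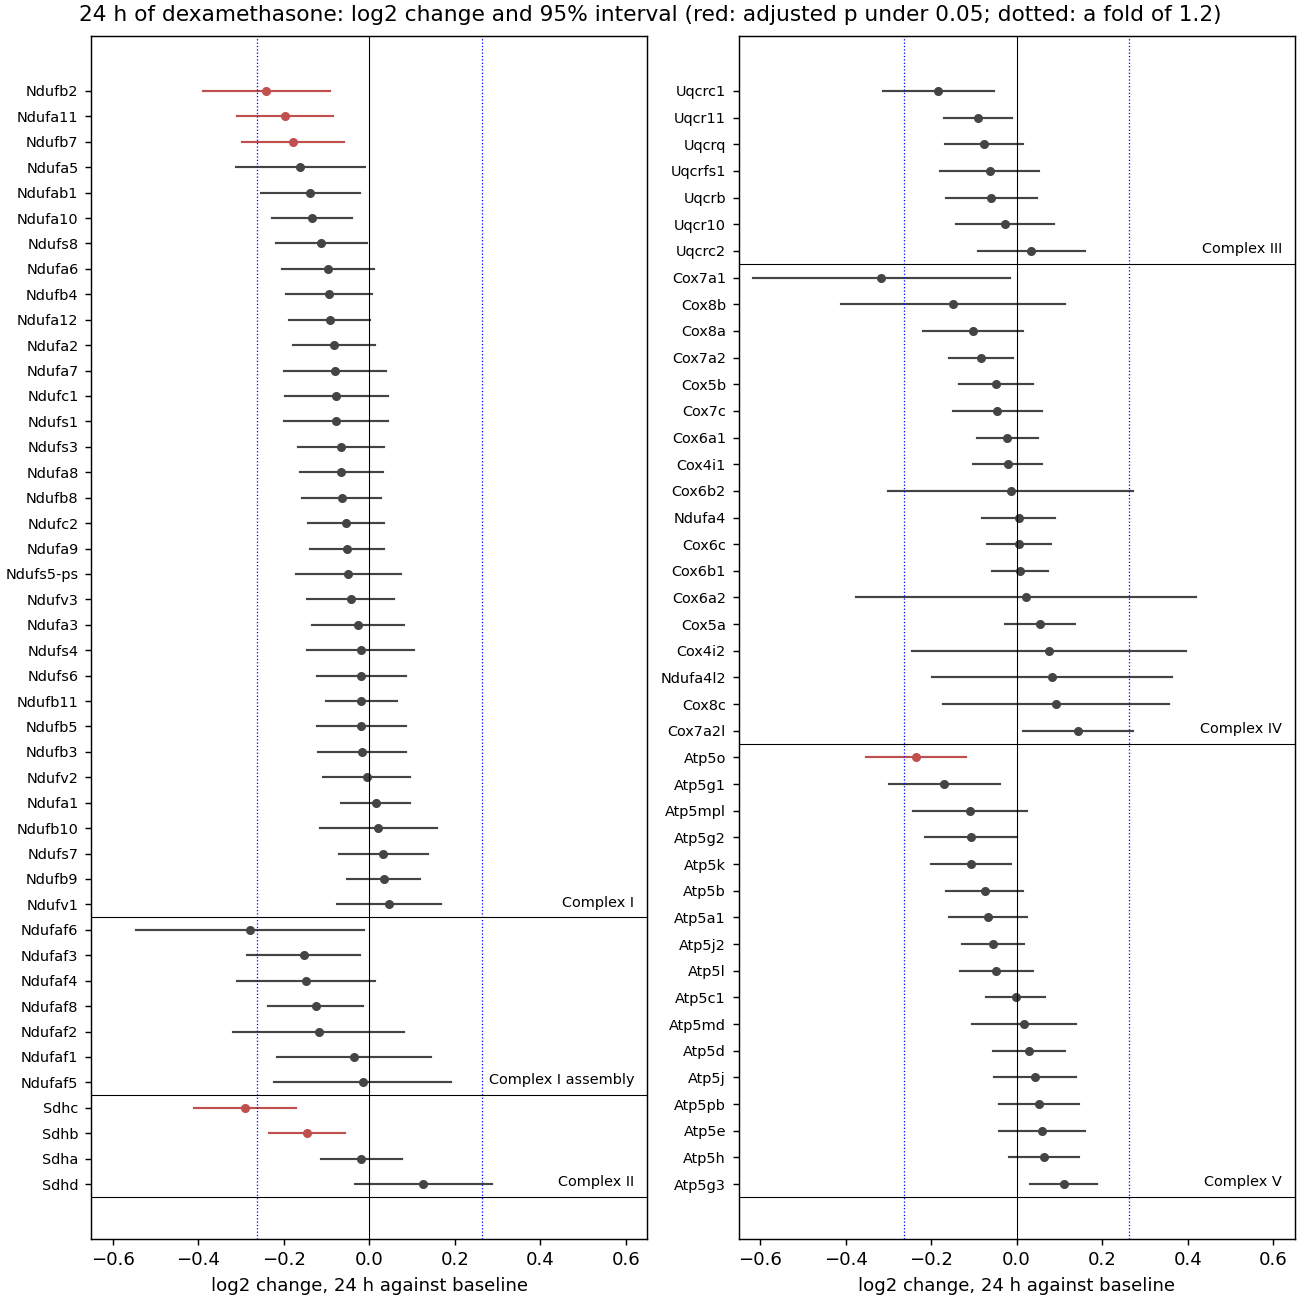
Log2 change at 24 h against baseline of the 86 tested genes by complex, with limma's 95% intervals as lines, red for the 6 genes called and dotted lines at a fold of 1.2. The intervals of 65 genes stay between the dotted lines, and all red points lie left of 0.

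On single arrays, the median over each complex moved by less than 0.1 log2 from the baseline mean except in the assembly factors. Their median was -0.23, -0.20 and -0.09 on the 10 h arrays and -0.14, -0.11 and -0.08 on the 24 h arrays, in order of size, against -0.09, 0.01 and 0.04 at baseline. The 10 h arrays all lay below baseline, the nearest by under 0.01, and 1 baseline array overlapped the 24 h arrays. For complex I the 24 h arrays ran between -0.08 and -0.05, against -0.04 to 0.05 at baseline.

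**Figure D5:**
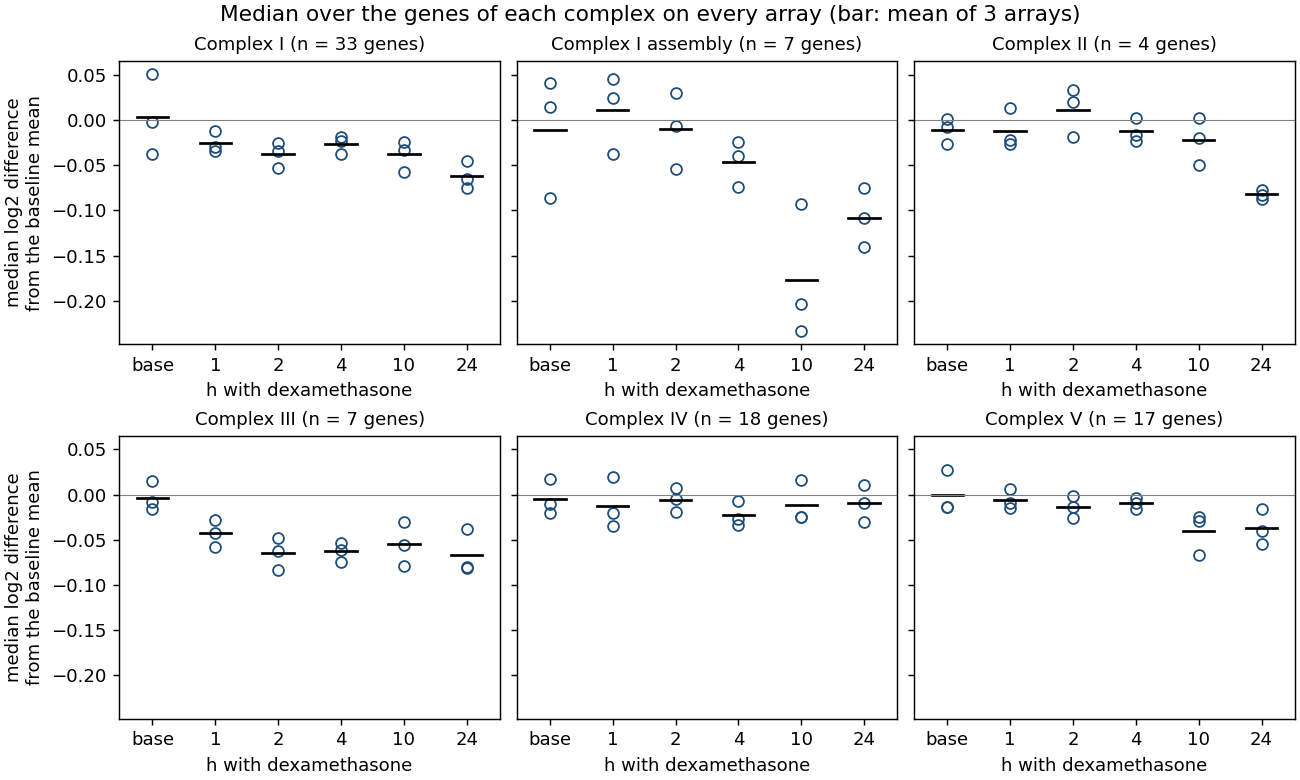
Median difference from the baseline mean over the genes of each complex (log2) on each of the 18 arrays, over baseline and 1, 2, 4, 10 and 24 h, with bars for the mean of 3 arrays. The assembly factors of complex I reach -0.23 on a 10 h array, while complex IV stays near 0 throughout.

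The promoters of 4 of the genes called lower are shown as examples with and without motif matches: 300 bases each, 250 before and 50 after the annotated start, on the gene's strand, from RefSeq on build GRCm38.p6. Windows were given for 70 of the 87 genes and for 8 of the 11 called. Capitals mark matches on either strand to GCATGCG (core of the NRF1 motif), CCGGAAG (ETS family) or AAGATGGCG (YY1), motifs of factors known for regulating nuclear genes of mitochondria. In Ndufa11 the capitals cover a pair of overlapping matches to the NRF1 core on opposite strands, and Ndufaf3 holds none of the 3.
Ndufaf3, chr9:108567387-108567686, minus strand: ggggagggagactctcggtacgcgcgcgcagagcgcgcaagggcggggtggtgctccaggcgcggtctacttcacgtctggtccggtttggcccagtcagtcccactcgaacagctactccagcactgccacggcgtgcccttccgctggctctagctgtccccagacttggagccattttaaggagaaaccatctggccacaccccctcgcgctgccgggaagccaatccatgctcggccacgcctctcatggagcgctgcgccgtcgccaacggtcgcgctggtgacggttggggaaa
Ndufaf8, chr11:120098684-120098983, plus strand: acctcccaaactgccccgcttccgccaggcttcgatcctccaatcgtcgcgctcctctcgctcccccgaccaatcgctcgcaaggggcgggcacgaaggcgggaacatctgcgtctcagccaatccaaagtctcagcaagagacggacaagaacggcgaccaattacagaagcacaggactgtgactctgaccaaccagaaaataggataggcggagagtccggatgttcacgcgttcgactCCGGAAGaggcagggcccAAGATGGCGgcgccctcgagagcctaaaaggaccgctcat
Sdhb, chr4:140961021-140961320, plus strand: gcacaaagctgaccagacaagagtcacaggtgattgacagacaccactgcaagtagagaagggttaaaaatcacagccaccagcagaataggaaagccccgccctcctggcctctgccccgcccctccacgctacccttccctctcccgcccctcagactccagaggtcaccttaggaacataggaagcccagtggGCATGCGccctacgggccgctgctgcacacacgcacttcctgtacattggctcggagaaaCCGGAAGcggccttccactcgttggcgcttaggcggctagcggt
Ndufa11, chr17:56717512-56717811, plus strand: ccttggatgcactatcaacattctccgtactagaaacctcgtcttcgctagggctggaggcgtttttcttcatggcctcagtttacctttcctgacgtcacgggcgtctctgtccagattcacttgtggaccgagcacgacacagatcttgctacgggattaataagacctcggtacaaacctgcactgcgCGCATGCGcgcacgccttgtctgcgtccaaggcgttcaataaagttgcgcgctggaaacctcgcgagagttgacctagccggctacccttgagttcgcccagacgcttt

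The NRF1 core was found in 13 of the 70 genes or 18.6%, against 6.62% of the tested genes with a window and 4.01% of all genes with one. The ETS motif was found in 17 or 24.3%, against 18% and 9.93%, and the YY1 motif in 8 or 11.4%, against 3.14% and 1.64%. The ERR motif TCAAGGTCA, that of the oestrogen-related receptors, was in 2 genes, Atp5g3 and Sdhd, or 2.86% against 0.339% and 0.466%. The relaxed glucocorticoid receptor motif ACANNNTGT was in 0 of the 70 windows, against 5.63% and 7.9%, which says only that these letters are not in these windows. Motifs and changes were not tested against each other.

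Genes beside the chain were described from lists. Of all tested genes, 6.16% were called lower and 8.29% higher at 10 h, and 5.34% lower and 7.38% higher at 24 h. The counts of each list, here and in the next paragraph, were not tested against these shares. Of 10 tested carriers and related enzymes outside the symbol rule, 1 fell and 1 rose at 24 h. Cycs, cytochrome c itself, stood at 10.73 ± 0.09 log2 at 10 h and 10.88 ± 0.05 at 24 h, against 11.04 ± 0.04 at baseline (SD, n = 3 each). It fell by 0.31 ± 0.05 on the log2 scale at 10 h (adjusted p 3.1e-05) and fell by 0.16 ± 0.05 at 24 h (adjusted p 0.0199). Dhodh, which feeds electrons from pyrimidine synthesis into coenzyme Q, rose by 0.47 ± 0.15 at 24 h (adjusted p 0.0376). Of 33 tested assembly factors with other names, 0 rose and 2 fell at 10 h and 0 were called at 24 h. Cox17, the copper chaperone of complex IV, was 1 of the 2: it fell by 0.33 ± 0.05 on the log2 scale at 10 h (adjusted p 3.65e-05) and stood at -0.14 ± 0.05 at 24 h (adjusted p 0.0651); the other was Higd1a, and both are named after their values were seen.

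Of 9 tested genes of coenzyme Q synthesis, 1 fell at 24 h. Coq7, a hydroxylase of the pathway, read 8.91 ± 0.03 at 24 h, against 9.28 ± 0.08 at baseline. It fell by 0.39 ± 0.07 on the log2 scale at 10 h and fell by 0.38 ± 0.07 at 24 h (adjusted p 0.000236 and 0.000374). At 10 h 2 others of the list rose, Coq8a and Coq9, named after their values were seen. Of 16 tested genes of mitochondrial transcription and biogenesis, 1 rose at 24 h, Tfb1m, a methyltransferase of mitochondrial ribosomal RNA (0.36 ± 0.11, adjusted p 0.0331), and 1 fell at 10 h, Pprc1. Of 16 tested genes of the tricarboxylic acid cycle 0 were called at 24 h, with a median of -0.02, and 1 rose at 10 h, Idh3b (0.15 ± 0.04, adjusted p 0.0102). Pprc1 and Idh3b are named after their values were seen.

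Probe sets of a gene did not always give the same value. Of 37 genes with 2 or more probe sets above background on every array, 13 had 24 h changes of both signs, and the median spread between probe sets was 0.07 log2. Uqcr10 had the largest spread, 0.37, between -0.03 for the brightest probe set and 0.34 for another. Sdha, Atp5d, Cox6b1 and Uqcrc2 were also among the 13. Their brightest probe sets gave -0.02, 0.03, 0.01 and 0.03, and their other bright ones 0.10, -0.09, -0.08 and -0.04. Of the called genes, Atp5o, Ndufb7, Ndufb2 and Ndufaf8 each had a second bright probe set. At 24 h it gave -0.20 for Atp5o, -0.11 for Ndufb7, -0.07 for Ndufb2 and -0.40 for Ndufaf8, beside -0.23, -0.18, -0.24 and -0.13 for the brightest. Ndufaf8 was called at 10 h only, and Atp5o and Ndufb7 at both times. The second probe set at 10 h gave -0.10 for Atp5o, -0.11 for Ndufb7 and -0.23 for Ndufaf8, beside -0.18, -0.18 and -0.19. With the mean of all probe sets the 24 h call of Ndufb2 was lost (adjusted p 0.118), as was that of Ndufa11 (-0.02, adjusted p 0.931). For Ndufa11 that mean takes in a probe set with a mean log2 intensity of 3.56, above background on no array. Using the mean also added calls for Atp5g3, Ndufaf8, Ndufb4 and Ndufs8 at 24 h and for Ndufb4 at 10 h. For Ndufb4 the mean takes in a probe set above background on 2 arrays. The 4 bright probe sets of Ndufs8 ran from -0.28 to -0.10 at 24 h, with -0.11 for the brightest. Sdhc, Sdhb, Ndufaf2 and Ndufaf3 were each measured by 1 probe set.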

How the data were processed

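Gene expression was measured in mouse macrophages on 18 Affymetrix arrays, 3 in each of 6 groups. The deposited table holds 1 linear intensity per probe set and array, made by the authors; the submitters' processing notes name RMA and affy, and versions are not given in the sources used here. RMA as usually run makes array distributions alike and so hides a shift common to most genes. Groups were taken from sample titles. From the deposited intensities log2 values were taken with no pseudocount, and probe sets with 1 symbol were named by GEO's platform annotation. A run of 211 evenly stepped values in baseline replicate 1 was left out; it held 0 probe sets of the genes described. The brightest probe set stood for a gene, and a gene had to reach the 40th percentile of an array on 3 arrays or more.

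Tests used limma 3.58.1 in R 4.3.3, fitted over all 18 arrays with 1 mean per group and an intensity trend. Two-sided p-values were adjusted by Benjamini-Hochberg over all genes kept, with a threshold of 0.05. Every adjusted p is limma's, and the error of a log2 change is its standard error. Background was the 95th percentile of 43 negative control probe sets. Each p-value sets a difference between groups against the spread within groups, estimated over all 18 arrays and moderated by limma. The number of arrays limits the precision. Deviations of same-numbered arrays correlated at over 0.1 for all 3 numbers at 1 h and 4 h against baseline, and not in the other comparisons. The 45 correlations between same-numbered arrays of different groups ran from 0.02 to 0.29, all positive. All 18 arrays correlated best with arrays of their own number, so arrays of a number had something in common. The main fit did not use the numbers as pairs at any time, and it left that common part in the spread within groups. It called 7 genes at 10 h and 6 at 24 h, while the fit with a block called 2 higher and 10 lower at each of these times. Calls from a fit with the replicate number as a block are given apart. Named were the called genes, the brightest and most changed of each complex at 24 h, tissue isoforms, complex II, and context genes called at 24 h. The genes and lists were chosen with earlier results of these data known.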

Additional observations from a re-analysis of the deposited data

How the results depend on the processing

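Of the 13 calls of single genes, 389 alternative values were computed: 323 kept direction and call, 65 kept direction and lost the call, and 1 reversed. Sdhc at 24 h and Ndufaf3 at 10 h were called under every alternative run. The reversal was Ndufa11 at 24 h, at 0.16 log2 (adjusted p 0.571) with the probe set of largest variance, which lies below background on every array. At 1 h and 2 h no alternative called a gene. At 4 h the count was 0, with 1 under the replicate block, 4 with arrays centred on their median and 0 to 2 without single arrays. At 10 h it was 7, with 12 under the replicate block (2 higher, 10 lower), 4 without the intensity trend, 1 with only the groups compared, 34 when centred, all lower, 4 when adjusted over the 5 times together, and 4 to 8 without single arrays. At 24 h it was 6, with 12 under the replicate block (2 higher, 10 lower), 2 without the trend, 41 when centred, all lower, and 2 to 9 without single arrays, the lowest without baseline replicate 2 or 24 h replicate 1 or 3. The step from 4 h to 10 h called 1, or 0 with only the groups compared and 0 to 1 without single arrays; the step from 10 h to 24 h called 0, or 1 under the replicate block. The F test called 3, with 11 under the replicate block, 5 with the mean of all probe sets, 24 when centred and 1 to 7 without single arrays. Of the calls over all genes, 58% were higher at 24 h and 57.4% at 10 h, against 20.6% and 21.9% when centred. Of 18 arrays, 18 correlated best with arrays of their own number. The cause of these differences was not tested. The adjustment over the 5 times together does not apply to the steps or to the F test, nor the fit of only the groups compared to the F test. The block added calls for Atp5g3 and Cox7a2l (higher) and Atp5g1, Uqcrc1, Ndufa10 and Ndufab1 (lower) at 24 h, and for Ndufv2 (higher) and Ndufa5, Ndufab1, Ndufaf4 and Uqcrc1 (lower) at 10 h. The median standard error was 0.14 log2 for the 7 tissue-restricted isoforms of complex IV and 0.05 for the 86 genes.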
